A study of Homo sapiens with 12 samples.

Results

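The 50 genes described here are genes that cells use to enter, order and finish mitosis, and they were followed in 2 hepatocellular carcinoma cell lines, HA22T and PLC5, with and without knockdown of GALNT1. The 50 genes were taken as a fixed list of known mitotic genes (cyclin B and its kinase, the mitotic kinases, the spindle checkpoint, kinetochore, kinesin, midzone and chromosome proteins), named gene by gene without a threshold on any measured value. Their probes were found through the RefSeq transcript that the array files give for each probe. Of the 50 genes, 48 could be read, out of 19776 genes read on the array. UBE2C, a ubiquitin-conjugating enzyme of the anaphase-promoting complex, had no probe matched. NDC80, the kinetochore subunit that holds microtubules, had a single probe with too few usable spots in a group.

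The study asked how gene expression changes when GALNT1, an enzyme that starts O-glycosylation in the Golgi, is knocked down. In all, 4 groups of 3 one-color arrays were compared. HA22T siControl and PLC5 siControl received a non-targeting siRNA, and HA22T siGALNT1 and PLC5 siGALNT1 received a pool of GALNT1 siRNAs, each at 10 nM for 48 h. Lipofectamine RNAiMAX carried the siRNA in all 4 groups, so that no untransfected cells were compared. Each line stands for a single tumor, the siRNA is a pool with no second independent pool beside it, and the labels number the replicates 1 to 3 without saying that they came from separate cultures, so that p values measure the spread between these arrays, which may be technical. All 6 HA22T arrays and both PLC5 replicates 1 share 1 slide, and PLC5 replicates 2 and 3 of both siRNAs share another.

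Mitotic genes are transcribed mainly in G2 and M phase. In resting cells and in G1 the DREAM complex keeps them silent through the cell cycle genes homology region (CHR) of their promoters, and later the MuvB core with MYBL2 and FOXM1 switches them on, often together with NF-Y bound at CCAAT boxes. Their RNA levels therefore follow the share of cells that are cycling, and in bulk RNA fewer cells in G2 and M and less RNA of these genes per cell cannot be told apart.

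Promoters of 6 of the genes are shown because they span the range of the results: CCNB2, CDK1, ANLN and MKI67 were lower in PLC5 than in HA22T, PLK1 was the gene called after knockdown, and NCAPG was higher in PLC5. Each sequence holds the 250 bases before the annotated start, 5′ to 3′ on the gene's strand, from RefSeq on GRCh38.p14, and of the 2 starts of CDK1 the one with more motif matches is shown. Capitals mark CHR elements (TTTGAA or TTCGAA) and CCAAT boxes (CCAAT), each searched on both strands, so that TTCAAA and ATTGG are the same motifs on the other strand. The windows lie at chr15:59104896-59105145 (plus strand) for CCNB2, chr10:60778228-60778477 (plus strand) for CDK1, chr7:36389612-36389861 (plus strand) for ANLN, chr10:128126424-128126673 (minus strand) for MKI67, chr16:23678639-23678888 (plus strand) for PLK1 and chr4:17810729-17810978 (plus strand) for NCAPG.
CCNB2: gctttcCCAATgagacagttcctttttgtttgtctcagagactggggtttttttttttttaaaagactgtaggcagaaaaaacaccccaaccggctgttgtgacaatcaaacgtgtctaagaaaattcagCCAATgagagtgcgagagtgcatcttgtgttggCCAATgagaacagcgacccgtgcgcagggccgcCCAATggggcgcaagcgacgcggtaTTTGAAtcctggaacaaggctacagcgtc
CDK1: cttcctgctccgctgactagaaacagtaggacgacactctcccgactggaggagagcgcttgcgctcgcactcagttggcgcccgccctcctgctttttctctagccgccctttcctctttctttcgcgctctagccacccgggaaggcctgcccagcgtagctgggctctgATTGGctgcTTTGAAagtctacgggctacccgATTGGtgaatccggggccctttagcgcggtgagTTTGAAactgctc
ANLN: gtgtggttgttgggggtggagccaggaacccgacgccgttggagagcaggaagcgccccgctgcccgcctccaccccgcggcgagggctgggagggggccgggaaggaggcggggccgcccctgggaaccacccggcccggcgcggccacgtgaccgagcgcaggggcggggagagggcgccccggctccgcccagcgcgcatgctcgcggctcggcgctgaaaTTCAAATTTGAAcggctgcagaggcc
MKI67: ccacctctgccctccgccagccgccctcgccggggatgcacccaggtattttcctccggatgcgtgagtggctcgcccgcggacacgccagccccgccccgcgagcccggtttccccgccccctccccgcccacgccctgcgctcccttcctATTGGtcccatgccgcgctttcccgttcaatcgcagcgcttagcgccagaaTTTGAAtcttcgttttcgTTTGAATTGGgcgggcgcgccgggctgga
PLK1: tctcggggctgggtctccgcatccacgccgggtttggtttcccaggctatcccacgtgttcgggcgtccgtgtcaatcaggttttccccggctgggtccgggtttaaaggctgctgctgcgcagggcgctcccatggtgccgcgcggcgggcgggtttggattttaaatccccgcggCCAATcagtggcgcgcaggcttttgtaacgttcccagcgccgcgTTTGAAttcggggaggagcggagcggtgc
NCAPG: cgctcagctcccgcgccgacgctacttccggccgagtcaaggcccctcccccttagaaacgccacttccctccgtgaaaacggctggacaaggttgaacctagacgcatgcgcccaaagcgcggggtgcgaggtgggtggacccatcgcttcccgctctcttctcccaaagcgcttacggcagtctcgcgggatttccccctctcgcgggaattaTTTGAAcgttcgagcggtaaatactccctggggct

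In CCNB2 a CHR element began 29 bases before the start, and 4 CCAAT boxes lay upstream of it with first bases at -244, -120, -87 and -54. PLK1 had the same layout with 1 box at -73 and its CHR element also at -29. CDK1 held CHR elements at -69 and -13, boxes at -78 and -46, and a further CHR match at 9 bases after the start, outside the stretch shown. In MKI67 the second CHR element, at -29, shared 1 base with the box at -24, and the others lay at -47 and -98. ANLN and NCAPG held CHR elements, 2 at -26 and -20 in ANLN and 1 at -35 in NCAPG, and no CCAAT box on either strand.

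Windows of 300 bases (250 before and 50 after the start) were at hand for 43 of the 50 genes, 54 windows in all because some genes have several starts. A CHR element was in 68.5% of the 54 windows, against 16.4% of all 35116 windows of the table. A CCAAT box was in 72.2%, against 34.6%, and both motifs together were in 55.6%, against 6.38%. Counted by gene, 28 of the 43 genes (65.1%) had both motifs in at least 1 window, against 7.85% of all 27305 genes of the table. In 41 G1 and S phase genes, the replication and nucleotide synthesis genes used as a second list, the 47 windows at hand held a CHR element in 8.51%, a CCAAT box in 55.3% and both in 6.38%. A match describes letters in a window and does not show that a factor binds there.

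**Figure D1:**
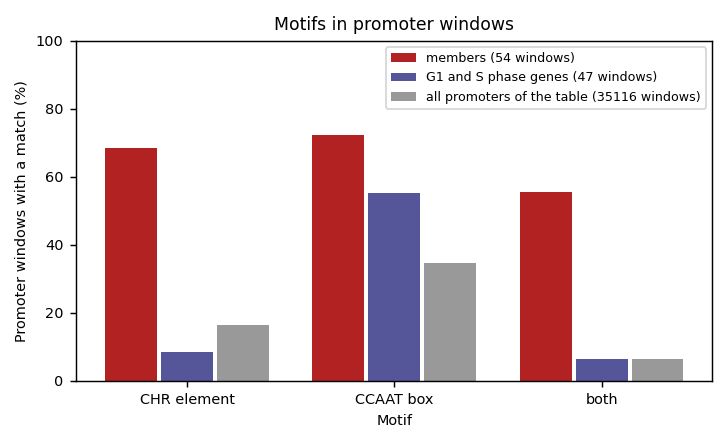
Share of promoter windows (y axis, percent) with a CHR element, a CCAAT box or both (x axis) among the mitosis genes (54 windows), the G1 and S phase genes (47 windows) and all promoters of the table (35116 windows). The mitosis genes stand above the G1 and S phase genes for the CHR element (68.5% against 8.51%) and less so for the CCAAT box (72.2% against 55.3%).

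Values are log2 of the processed signal of a probe minus the 75th percentile of its array, so that 0 is the 75th percentile. Between 36679 and 48873 of the 58717 spots of an array were well above background and none was saturated, and replicate arrays correlated at 0.968 to 0.988 over probes. GALNT1 itself was 1.48, 0.89 and 0.99 in HA22T siControl and -3.04, -3.54 and -5.41 in HA22T siGALNT1, where 2 of the 3 arrays were well above background. In PLC5 GALNT1 was 0.99, 0.47 and 0.72 with siControl and -1.79, -3.33 and -3.83 with siGALNT1. The log2 differences were -5.12 (SE 0.61, adjusted p = 0.0688) in HA22T and -3.71 (SE 0.61, adjusted p = 1) in PLC5, and the arrays with and without knockdown did not overlap. A call below means a fold of at least 1.5 with an unadjusted p under 0.05 from limma, the study's own criterion, and adjusted p values are Benjamini-Hochberg values over all probes tested. For 3 arrays against 3 the exact permutation test cannot go below 0.1, which every gene without overlap reaches.

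Both lines were checked against markers. All 9 hepatocyte markers were higher in PLC5 with siControl, 8 of them past the criterion, with array medians over the list of 2.01 to 3.22 in PLC5 siControl, 1.92 to 3.01 in PLC5 siGALNT1, -4.44 to -4.26 in HA22T siControl and -5.07 to -3.97 in HA22T siGALNT1. In HA22T siControl only 4 of the 9 were well above background on all 3 arrays. VIM, the mesenchymal intermediate filament, was 6.53, 5.86 and 5.82 in HA22T siControl and 1.0, 0.63 and -0.17 in PLC5 siControl. Array medians over 3 mesenchymal markers were 3.49 to 4.35 in the HA22T groups and -0.38 to 1.32 in the PLC5 groups. The 4 immune markers had medians of -1.50 to 0.10 in HA22T and -2.52 to -1.98 in PLC5, and the 3 endothelial markers -3.93 to -3.09 and -2.94 to -2.31. Of the endothelial markers PECAM1 stood apart, at -3.09, -3.50 and -2.44 in HA22T siControl and 2.18, 2.33 and 2.56 in PLC5 siControl, a difference of 5.37 (SE 0.32, adjusted p = 7.25e-07). The 4 epithelial markers had array medians of 0.38 to 0.68 in HA22T siControl and -0.45 to 0.12 in PLC5 siControl, without overlap. With siGALNT1 the medians overlapped, at 0.30 to 1.27 in HA22T and 0.19 to 1.15 in PLC5. All 3 epithelial markers tested were lower in PLC5 with siControl, 2 of them called, and 0 were called with siGALNT1. The part of these line differences in the mitotic gene differences was not tested.

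The median level of the mitosis genes stood lower in PLC5 than in HA22T. Over the 48 genes the median level on the arrays of HA22T siControl was 1.73, 1.65 and 1.62, and on those of HA22T siGALNT1 it was 1.43, 2.10 and 1.61. The arrays of PLC5 siControl gave 0.64, -0.35 and 0.16 and those of PLC5 siGALNT1 gave 0.84, 0.29 and 0.08. Every PLC5 array thus lay below every HA22T array, and PLC5 replicate 1 was the highest of its group with either siRNA. Medians over all genes read ran from -1.51 to -1.29 over the 12 arrays and did not separate the lines.

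**Figure D2:**
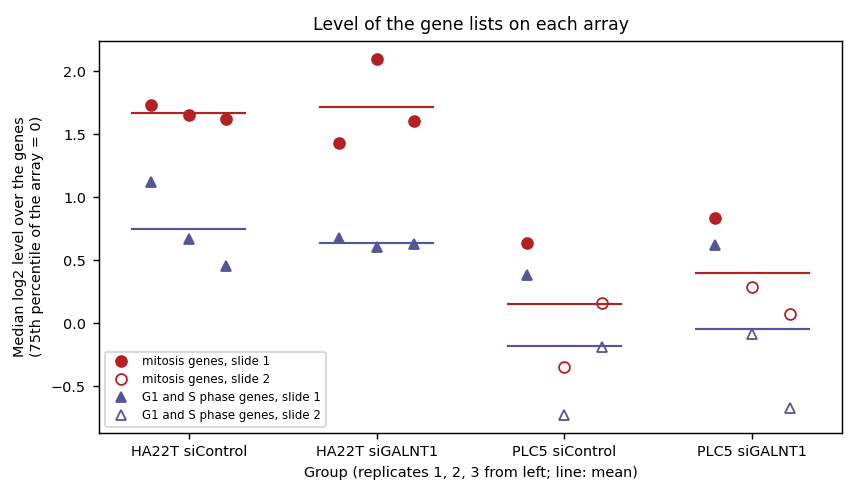
Median log2 level over the 48 mitosis genes (circles) and 41 G1 and S phase genes (triangles) on each of the 12 arrays (y axis, 0 is the array's 75th percentile), by group (x axis), with filled symbols for slide 1, open symbols for slide 2 and lines for group means. The mitosis genes lie at 1.43 to 2.10 on the HA22T arrays and at -0.35 to 0.84 on the PLC5 arrays, with the slide 1 array highest in both PLC5 groups.

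With siControl, 45 of the 48 genes were lower in PLC5 and the median log2 difference was -1.47, while it was -0.15 over all 16975 genes tested. Lower calls were made for 38 of the 48, against 22.3% of all genes, and a higher call for 1 (NCAPG), against 16.5%. With an adjusted p under 0.05 the counts were 34 lower and 1 higher, against 15.2% and 12.1% of all genes. The 3 arrays of PLC5 lay wholly below the 3 of HA22T for 38 genes (27.8% of all genes) and wholly above for 2 (20%), NCAPG and ECT2.

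With siGALNT1, 43 of the 48 were lower in PLC5, with a median of -1.05 against -0.07 over all 16745 genes tested. Calls were 34 lower, against 19.5% of all genes, and 2 higher (NCAPG and PLK1), against 20.3%, with 39.9% of all genes called in either direction. By adjusted p 20 were lower and 1 higher, against 12.1% and 15.1%. Groups did not overlap for 32 genes on the lower side and 2 on the higher side, with 22.6% of all genes on each side. The comparisons with siControl and with siGALNT1 share no array but lie on the same slides. The same 34 genes were called lower in both, 20 of them by adjusted p in both, and NCAPG was called higher in both. Across the 48 genes, which are not independent replicates, the log2 differences of the 2 comparisons had a Pearson correlation of 0.953 and a Spearman correlation of 0.931. Over all 12 arrays, 30 of the 48 genes (62.5%) had every PLC5 array below every HA22T array, against 15.9% of 16682 genes, and NCAPG had every PLC5 array above, as did 15.1% of genes.

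The slide moved with these values. PLC5 replicate 1, on slide 1, was the highest of the 3 siControl arrays for 44 of the 48 genes (91.7%, against 50.8% of all genes) and stood a median of 0.77 above the mean of replicates 2 and 3. With siGALNT1 it was the highest for 42 of 47 genes (89.4%, against 42.1%), by a median of 0.75. Slide and replicate cannot be told apart within PLC5. On slide 1 alone the siControl array of PLC5 lay below all 3 HA22T arrays for 38 of the 48 genes (79.2%, against 38.3% of all genes), with a median difference of -0.83, and the siGALNT1 array for 32 of 47 (68.1%, against 36.4%), with a median of -0.50. With the slide as a block, calls were 28 lower and 2 higher of 48 with siControl, against 34% of all genes called in either direction, and 18 lower and 3 higher with siGALNT1, against 37.8%, and the medians were -0.90 and -0.50 against -0.09 and 0.03 over all genes. With siGALNT1 the share of the 48 genes called in either direction under the block was thus near that of all genes, although 18 of the 21 calls were lower. A fit with the PLC5 arrays of slide 1 alone left 1 array in each PLC5 group, so that only median differences are given. They were -0.83 with siControl and -0.50 with siGALNT1, against -0.08 and 0.02 over all genes. With the PLC5 arrays of slide 2 alone there were 40 lower and 1 higher calls with siControl, against 38.7% of all genes. With siGALNT1 there were 39 lower and 2 higher, against 37.4%.

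**Figure D3:**
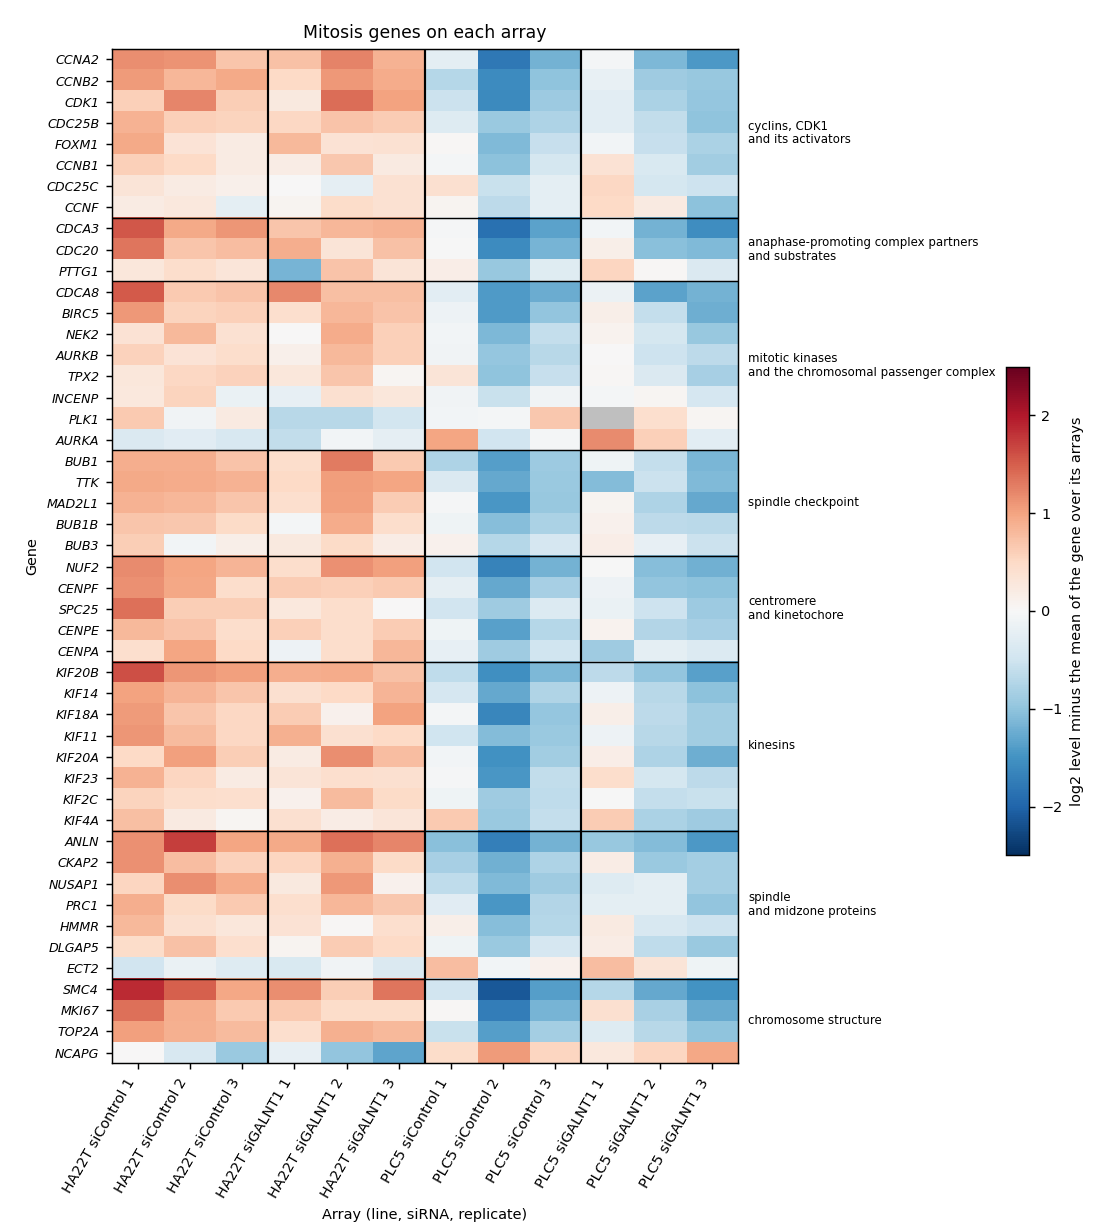
Heat map of the 48 mitosis genes (rows, grouped by role) on the 12 arrays (columns, by line, siRNA and replicate), colored by log2 level minus the gene's mean over its arrays, with grey for a flagged spot without a value. Most rows are red in the 6 HA22T columns and blue in the 6 PLC5 columns, palest in the PLC5 replicate 1 columns, while NCAPG, ECT2 and AURKA run the other way.

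Entry into mitosis needs CDK1, the kinase, together with cyclins, and 6 of the 8 genes of this group were called lower in PLC5 with siControl and 5 with siGALNT1. CCNA2, the cyclin of S and G2 phase, read 2.04, 2.0 and 1.58 with siControl and 1.62, 2.12 and 1.76 with siGALNT1 in HA22T, and 0.64, -0.90 and -0.30 with siControl and 0.84, -0.24 and -0.56 with siGALNT1 in PLC5. Its differences between the lines were -2.06 (SE 0.43, adjusted p = 0.00514) with siControl and -1.82 (SE 0.43, adjusted p = 0.0107) with siGALNT1. CCNB2, a mitotic B-type cyclin, read 0.04, -0.19 and -0.07 with siControl and -0.53, 0.07 and -0.08 with siGALNT1 in HA22T, and -1.73, -2.59 and -2.03 with siControl and -1.20, -1.91 and -1.97 with siGALNT1 in PLC5. The B cyclin differed by -2.04 (SE 0.31, adjusted p = 0.000583) with siControl and -1.51 (SE 0.31, adjusted p = 0.00444) with siGALNT1. For CCNA2 and CCNB2 every PLC5 array lay below every HA22T array. CDK1 stood at 1.75, 2.37 and 1.76 in HA22T siControl, 1.39, 2.55 and 2.15 in HA22T siGALNT1, 0.61, -0.45 and 0.24 in PLC5 siControl and 0.89, 0.36 and 0.18 in PLC5 siGALNT1. PLC5 replicate 1 was the highest PLC5 array with each siRNA and still lay below all HA22T arrays, and the differences were -1.82 (SE 0.38, adjusted p = 0.00479) with siControl and -1.55 (SE 0.38, adjusted p = 0.0126) with siGALNT1. CDC25B, a phosphatase that activates CDK1, read 1.32, 1.05 and 1.0 with siControl and 0.97, 1.17 and 1.08 with siGALNT1 in HA22T, and 0.13, -0.48 and -0.32 with siControl and 0.17, -0.16 and -0.57 with siGALNT1 in PLC5. The differences in CDC25B were -1.35 (SE 0.27, adjusted p = 0.00351) with siControl and -1.26 (SE 0.27, adjusted p = 0.00552) with siGALNT1, without overlap.

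CCNB1, the partner of CDK1 at mitotic entry, read 2.72, 2.62 and 2.32 with siControl and 2.30, 2.78 and 2.33 with siGALNT1 in HA22T, and 2.07, 1.08 and 1.68 with siControl and 2.48, 1.74 and 1.25 with siGALNT1 in PLC5. The lines did not overlap with siControl, where the difference was -0.94 (SE 0.36, adjusted p = 0.0851), and overlapped with siGALNT1, where it was -0.65 (SE 0.36, adjusted p = 0.216) and not called. A second CCNB1 probe gave -0.57 (SE 0.27) with siControl and -0.45 (SE 0.27) with siGALNT1 and was called in neither. FOXM1, the transcription factor that drives this program, read 2.02, 1.42 and 1.28 with siControl and 1.88, 1.44 and 1.46 with siGALNT1 in HA22T, and 1.11, -0.02 and 0.50 with siControl and 1.01, 0.50 and 0.29 with siGALNT1 in PLC5. All PLC5 arrays of FOXM1 lay below all HA22T arrays, and its differences of -1.04 (SE 0.34, adjusted p = 0.0503) with siControl and -0.99 (SE 0.34, adjusted p = 0.0588) with siGALNT1 met the criterion but not an adjusted p of 0.05. CDC25C, a further CDK1 phosphatase, and CCNF, a cyclin that serves as a ubiquitin ligase subunit, overlapped between the lines. Their differences with siControl were -0.36 for CDC25C and -0.35 for CCNF, not called.

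Among the mitotic kinases and the chromosomal passenger complex, which corrects faulty attachments and starts cytokinesis, 5 of 8 genes were called lower with siControl and 4 with siGALNT1. CDCA8, the borealin subunit of the complex, read 2.20, 1.32 and 1.37 with siControl and 1.86, 1.42 and 1.41 with siGALNT1 in HA22T, and 0.40, -0.76 and -0.58 with siControl and 0.51, -0.68 and -0.53 with siGALNT1 in PLC5. Its differences were -1.94 (SE 0.41, adjusted p = 0.00547) with siControl and -1.80 (SE 0.41, adjusted p = 0.00894) with siGALNT1. BIRC5, survivin, another subunit, read 3.78, 3.26 and 3.30 with siControl and 3.13, 3.55 and 3.41 with siGALNT1 in HA22T, and 2.59, 1.29 and 1.72 with siControl and 2.85, 2.12 and 1.5 with siGALNT1 in PLC5. For BIRC5 the differences were -1.58 (SE 0.40, adjusted p = 0.0146) with siControl and -1.21 (SE 0.40, adjusted p = 0.0501) with siGALNT1. AURKB, the kinase of the complex, read 1.91, 1.69 and 1.78 with siControl and 1.48, 2.15 and 1.94 with siGALNT1 in HA22T, and 1.25, 0.37 and 0.65 with siControl and 1.36, 0.81 and 0.69 with siGALNT1 in PLC5. In AURKB the lines differed by -1.03 (SE 0.30, adjusted p = 0.0311) with siControl and -0.90 (SE 0.30, adjusted p = 0.054) with siGALNT1. These 3 genes had every PLC5 array below every HA22T array, and INCENP, the scaffold of the complex, overlapped, with -0.46 and -0.30, not called. With the slide as a block BIRC5 lost its call with siGALNT1, at -0.50.

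AURKA, the kinase of the spindle poles, was not lower in PLC5 and read 2.35, 2.44 and 2.32 with siControl and 2.10, 2.66 and 2.5 with siGALNT1 in HA22T, and 3.70, 2.23 and 2.66 with siControl and 3.90, 3.31 and 2.46 with siGALNT1 in PLC5. The difference was 0.50 (SE 0.42, adjusted p = 0.458) with siControl and 0.81 (SE 0.42, adjusted p = 0.195) with siGALNT1, with overlapping arrays and no call. TPX2, which activates AURKA on the spindle, was called lower with siControl, at -0.88 (SE 0.36, adjusted p = 0.112), and not with siGALNT1, at -0.72 (SE 0.36, adjusted p = 0.175). NEK2, a kinase that splits the centrosomes, was called lower with either siRNA, at -1.11 (SE 0.37, adjusted p = 0.0524) and -0.95 (SE 0.37, adjusted p = 0.0902), and overlapped with siGALNT1. A second NEK2 probe gave -0.89 (SE 0.42) with siControl and -0.53 (SE 0.42) with siGALNT1 and was called in neither.

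PLK1, the kinase that acts from mitotic entry to cytokinesis, read 5.71, 4.96 and 5.27 with siControl and 4.35, 4.36 and 4.58 with siGALNT1 in HA22T, and 4.96, 4.99 and 5.71 with siControl and 5.47 and 5.10 with siGALNT1 in PLC5, where PLC5 siGALNT1 replicate 1 gave no value because its spot was flagged. The siControl arrays overlapped and differed by -0.09 (SE 0.30, adjusted p = 0.871), while with siGALNT1 the PLC5 arrays lay above the HA22T arrays, by 0.86 (SE 0.34, adjusted p = 0.0945). A second PLK1 probe was lower in PLC5 with siControl, at -1.08 (SE 0.45, adjusted p = 0.121), past the criterion with an unadjusted limma p of 0.0368. With siGALNT1 it gave -0.71 (SE 0.40, adjusted p = 0.234) and was not called, so that the 2 probes had opposite signs with siGALNT1 and the same sign with siControl. Of the 48 genes, 12 had more than 1 probe, and where the text gives a single value it is from the brightest.

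The spindle checkpoint holds anaphase back until every kinetochore is attached, and 4 of its 5 genes were called lower with each siRNA. BUB1, a kinase at unattached kinetochores, read 0.38, 0.37 and 0.18 with siControl and -0.10, 0.77 and 0.12 with siGALNT1 in HA22T, and -1.31, -1.91 and -1.44 with siControl and -0.65, -1.14 and -1.68 with siGALNT1 in PLC5. Its differences were -1.86 (SE 0.33, adjusted p = 0.00163) with siControl and -1.42 (SE 0.33, adjusted p = 0.00903) with siGALNT1. TTK, the kinase that starts the signal, read -0.88, -0.90 and -0.96 with siControl and -1.33, -0.77 and -0.83 with siGALNT1 in HA22T, and -2.19, -3.10 and -2.75 with siControl and -2.92, -2.36 and -2.93 with siGALNT1 in PLC5. TTK differed by -1.77 (SE 0.30, adjusted p = 0.00115) with siControl and -1.75 (SE 0.30, adjusted p = 0.00127) with siGALNT1. MAD2L1, the protein that captures CDC20, read 3.00, 2.97 and 2.83 with siControl and 2.55, 3.16 and 2.77 with siGALNT1 in HA22T, and 2.11, 0.68 and 1.19 with siControl and 2.21, 1.36 and 0.85 with siGALNT1 in PLC5. The MAD2L1 differences were -1.61 (SE 0.41, adjusted p = 0.0153) with siControl and -1.35 (SE 0.41, adjusted p = 0.0348) with siGALNT1. In these 3 genes every PLC5 array lay below every HA22T array, and PLC5 replicate 1 was the closest to HA22T in BUB1 and MAD2L1. BUB1B, the pseudokinase BUBR1, was called lower at -1.28 (SE 0.35, adjusted p = 0.0207) and -0.84 (SE 0.35, adjusted p = 0.104), the latter with overlap. BUB3, the adaptor of BUB1 and BUB1B, was not called, at -0.57 and -0.50, while its second probe gave -1.11 (SE 0.30, adjusted p = 0.0213) with siControl and -0.60 (SE 0.30, adjusted p = 0.182) with siGALNT1.

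All 5 centromere and kinetochore genes read were called lower in PLC5 with each siRNA. NUF2, the partner of NDC80 at the microtubule, read 2.81, 2.62 and 2.49 with siControl and 2.07, 2.78 and 2.66 with siGALNT1 in HA22T, and 1.16, -0.04 and 0.46 with siControl and 1.63, 0.56 and 0.43 with siGALNT1 in PLC5. The NUF2 differences were -2.11 (SE 0.39, adjusted p = 0.00229) with siControl and -1.63 (SE 0.39, adjusted p = 0.0111) with siGALNT1. CENPF, a large outer kinetochore protein, read 2.69, 2.52 and 2.0 with siControl and 2.19, 2.15 and 2.20 with siGALNT1 in HA22T, and 1.33, 0.28 and 0.73 with siControl and 1.43, 0.56 and 0.52 with siGALNT1 in PLC5. For CENPF they were -1.62 (SE 0.34, adjusted p = 0.00542) with siControl and -1.35 (SE 0.34, adjusted p = 0.0156) with siGALNT1. Both genes had all PLC5 arrays below all HA22T arrays. SPC25, a subunit of the same complex as NUF2, read 0.38, -0.38 and -0.38 with siControl and -0.73, -0.56 and -0.99 with siGALNT1 in HA22T, and -1.47, -1.88 and -1.34 with siControl and -1.16, -1.51 and -1.91 with siGALNT1 in PLC5. The lines did not overlap with either siRNA, the HA22T arrays of SPC25 were lower with siGALNT1, and the differences were -1.44 (SE 0.30, adjusted p = 0.00531) with siControl and -0.77 (SE 0.30, adjusted p = 0.0935) with siGALNT1. CENPE, the kinetochore kinesin, read -0.53, -0.63 and -0.90 with siControl and -0.75, -0.90 and -0.70 with siGALNT1 in HA22T, and -1.45, -2.70 and -2.06 with siControl and -1.25, -2.07 and -2.18 with siGALNT1 in PLC5. Differences in CENPE were -1.38 (SE 0.35, adjusted p = 0.0141) with siControl and -1.05 (SE 0.35, adjusted p = 0.05) with siGALNT1, without overlap. CENPA, the centromeric histone, had HA22T arrays between -2.43 and -1.31 and PLC5 arrays between -3.19 and -2.51 and differed by -1.17 (SE 0.32, adjusted p = 0.0231) with siControl and -0.87 (SE 0.32, adjusted p = 0.0745) with siGALNT1.

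Kinesins move and shape the spindle, and 7 of the 8 were called lower in PLC5 with siControl and 6 with siGALNT1. KIF20B, which acts in cytokinesis, read 2.88, 2.37 and 2.31 with siControl and 2.18, 2.21 and 2.01 with siGALNT1 in HA22T, and 0.64, -0.25 and 0.15 with siControl and 0.63, 0.30 and -0.08 with siGALNT1 in PLC5. Its differences, the largest among the kinesins, were -2.34 (SE 0.30, adjusted p = 0.000175) with siControl and -1.85 (SE 0.30, adjusted p = 0.000992) with siGALNT1. KIF14, which acts at the midbody, read -1.39, -1.56 and -1.70 with siControl and -2.0, -1.90 and -1.56 with siGALNT1 in HA22T, and -2.81, -3.69 and -3.16 with siControl and -2.53, -3.10 and -3.43 with siGALNT1 in PLC5. For KIF14 the lines differed by -1.67 (SE 0.31, adjusted p = 0.00227) with siControl and -1.20 (SE 0.31, adjusted p = 0.0159) with siGALNT1. KIF11, which pushes the spindle poles apart, read 1.49, 1.17 and 0.91 with siControl and 1.27, 0.78 and 0.88 with siGALNT1 in HA22T, and -0.11, -0.71 and -0.54 with siControl and 0.26, -0.32 and -0.49 with siGALNT1 in PLC5. The KIF11 differences were -1.64 (SE 0.29, adjusted p = 0.00178) with siControl and -1.16 (SE 0.29, adjusted p = 0.0145) with siGALNT1. All 3 had every PLC5 array below every HA22T array.

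KIF20A, a kinesin of the central spindle, read 1.54, 2.07 and 1.66 with siControl and 1.25, 2.21 and 1.83 with siGALNT1 in HA22T, and 0.98, -0.46 and 0.17 with siControl and 1.22, 0.28 and -0.18 with siGALNT1 in PLC5. The PLC5 siGALNT1 replicate 1 array of KIF20A, at 1.22, lay just below the lowest HA22T array, at 1.25. The siControl replicate 1 array of PLC5 lay at 0.98. The KIF20A differences were -1.53 (SE 0.44, adjusted p = 0.0289) with siControl and -1.32 (SE 0.44, adjusted p = 0.0527) with siGALNT1. With the slide as a block KIF20A lost both calls, at -0.76 and -0.56. KIF18A, which damps chromosome movement at the metaphase plate, read -1.03, -1.39 and -1.57 with siControl and -1.46, -1.99 and -1.08 with siGALNT1 in HA22T, and -2.15, -3.72 and -3.06 with siControl and -1.95, -2.75 and -2.97 with siGALNT1 in PLC5. Its arrays overlapped with siGALNT1, and the differences were -1.64 (SE 0.42, adjusted p = 0.016) with siControl and -1.05 (SE 0.42, adjusted p = 0.0983) with siGALNT1. KIF23, of the centralspindlin complex, was called with siControl, at -1.24 (SE 0.39, adjusted p = 0.0414), and not with siGALNT1, at -0.59 (SE 0.39, adjusted p = 0.302). KIF2C, a microtubule depolymerase, was called with both, at -1.01 and -0.84. KIF4A, a chromosome and midzone kinesin, was called in neither, at -0.64 with each siRNA.

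Of the 7 spindle and midzone proteins, 6 were called lower with siControl and 5 with siGALNT1. ANLN, anillin, the scaffold of the contractile ring, read 1.02, 1.60 and 0.86 with siControl and 0.81, 1.25 and 1.08 with siGALNT1 in HA22T, and -1.18, -1.84 and -1.32 with siControl and -1.09, -1.22 and -1.56 with siGALNT1 in PLC5. A gap of more than 1 log2 unit separated all PLC5 from all HA22T arrays, and ANLN had the smallest adjusted p of the 48 genes, with differences of -2.61 (SE 0.29, adjusted p = 5.84e-05) with siControl and -2.33 (SE 0.29, adjusted p = 0.000142) with siGALNT1, a fold of 6.09 and 5.04. CKAP2, a spindle-binding protein, read -0.68, -1.04 and -1.24 with siControl and -1.27, -0.93 and -1.34 with siGALNT1 in HA22T, and -2.65, -3.02 and -2.59 with siControl and -1.63, -2.74 and -2.66 with siGALNT1 in PLC5. For CKAP2 they were -1.77 (SE 0.32, adjusted p = 0.00212) with siControl and -1.16 (SE 0.32, adjusted p = 0.0236) with siGALNT1. NUSAP1, a protein of spindle microtubules, read 1.56, 2.19 and 1.95 with siControl and 1.28, 2.11 and 1.14 with siGALNT1 in HA22T, and 0.39, -0.08 and 0.15 with siControl and 0.70, 0.80 and 0.18 with siGALNT1 in PLC5. The NUSAP1 differences were -1.75 (SE 0.32, adjusted p = 0.00209) with siControl and -0.95 (SE 0.32, adjusted p = 0.0528) with siGALNT1. PRC1, which bundles midzone microtubules, read 0.36, -0.07 and 0.10 with siControl and -0.12, 0.28 and 0.12 with siGALNT1 in HA22T, and -0.82, -2.0 and -1.27 with siControl and -0.79, -0.80 and -1.53 with siGALNT1 in PLC5. PRC1 differed by -1.5 (SE 0.33, adjusted p = 0.00736) with siControl and -1.13 (SE 0.33, adjusted p = 0.031) with siGALNT1. None of these genes overlapped between the lines. HMMR, a spindle pole protein, was called with siControl (-1.04) and not with siGALNT1 (-0.51), and DLGAP5, a spindle assembly factor, with both (-1.03 and -0.86). ECT2, the exchange factor that activates RhoA in cytokinesis, stood at 0.59 and 0.61, higher in PLC5 and not called.

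CDC20, CDCA3 and PTTG1 work with the anaphase-promoting complex, and the first 2 were called lower with each siRNA. CDC20, the activator of the complex, read 3.88, 3.23 and 3.30 with siControl and 3.44, 2.86 and 3.27 with siGALNT1 in HA22T, and 2.53, 0.95 and 1.37 with siControl and 2.69, 1.5 and 1.42 with siGALNT1 in PLC5. The differences were -1.85 (SE 0.45, adjusted p = 0.0116) with siControl and -1.32 (SE 0.45, adjusted p = 0.0559) with siGALNT1. CDCA3, which promotes degradation of the CDK1 inhibitor WEE1, read 3.23, 2.63 and 2.79 with siControl and 2.38, 2.52 and 2.55 with siGALNT1 in HA22T, and 1.66, -0.17 and 0.35 with siControl and 1.62, 0.49 and 0.13 with siGALNT1 in PLC5. CDCA3 differed by -2.27 (SE 0.48, adjusted p = 0.00504) with siControl and -1.73 (SE 0.48, adjusted p = 0.0223) with siGALNT1. Neither gene overlapped between the lines, and PLC5 replicate 1 was the highest PLC5 array throughout. PTTG1, securin, was not called, at -0.70 with siControl and 0.11 with siGALNT1.

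Of the 4 chromosome structure genes, 3 were lower in PLC5 and 1 was higher. SMC4, an ATPase core subunit of condensin, read 3.44, 3.07 and 2.55 with siControl and 2.73, 2.19 and 2.91 with siGALNT1 in HA22T, and 1.1, -0.54 and 0.19 with siControl and 0.86, 0.29 and 0.08 with siGALNT1 in PLC5. All PLC5 arrays lay below all HA22T arrays, and the differences, -2.77 (SE 0.42, adjusted p = 0.000609) with siControl and -2.20 (SE 0.42, adjusted p = 0.00303) with siGALNT1, correspond to a fold of 6.83 and 4.59. A second SMC4 probe gave -2.74 and -2.36. NCAPG, a regulatory subunit of condensin I that works with SMC4, read -0.52, -0.94 and -1.46 with siControl and -0.74, -1.53 and -1.85 with siGALNT1 in HA22T, and -0.08, 0.54 and 0.01 with siControl and -0.28, 0.01 and 0.42 with siGALNT1 in PLC5. Every PLC5 array of NCAPG lay above every HA22T array, and it was higher by 1.13 (SE 0.36, adjusted p = 0.0452) with siControl and 1.42 (SE 0.36, adjusted p = 0.0154) with siGALNT1, a fold of 2.19 and 2.68. The 2 condensin subunits thus differed in opposite directions between the same arrays. TOP2A, the topoisomerase that untangles sister chromatids, read 0.52, 0.37 and 0.28 with siControl and -0.10, 0.37 and 0.29 with siGALNT1 in HA22T, and -1.07, -1.89 and -1.36 with siControl and -0.84, -1.21 and -1.52 with siGALNT1 in PLC5. Its differences were -1.83 (SE 0.29, adjusted p = 0.000734) with siControl and -1.38 (SE 0.29, adjusted p = 0.00492) with siGALNT1, without overlap. MKI67, the proliferation marker Ki-67 that coats mitotic chromosomes, read 3.67, 3.21 and 2.96 with siControl and 2.95, 2.75 and 2.77 with siGALNT1 in HA22T, and 2.33, 0.56 and 1.14 with siControl and 2.70, 1.5 and 1.03 with siGALNT1 in PLC5. The PLC5 replicate 1 array with siGALNT1 nearly reached the HA22T arrays, and MKI67 differed by -1.94 (SE 0.49, adjusted p = 0.0146) with siControl and -1.08 (SE 0.49, adjusted p = 0.139) with siGALNT1. With the slide as a block the MKI67 difference with siGALNT1 was -0.10 and not called. Its other probes gave -2.23 and -1.06 with siControl and -1.92 and -0.94 with siGALNT1.

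**Figure D4:**
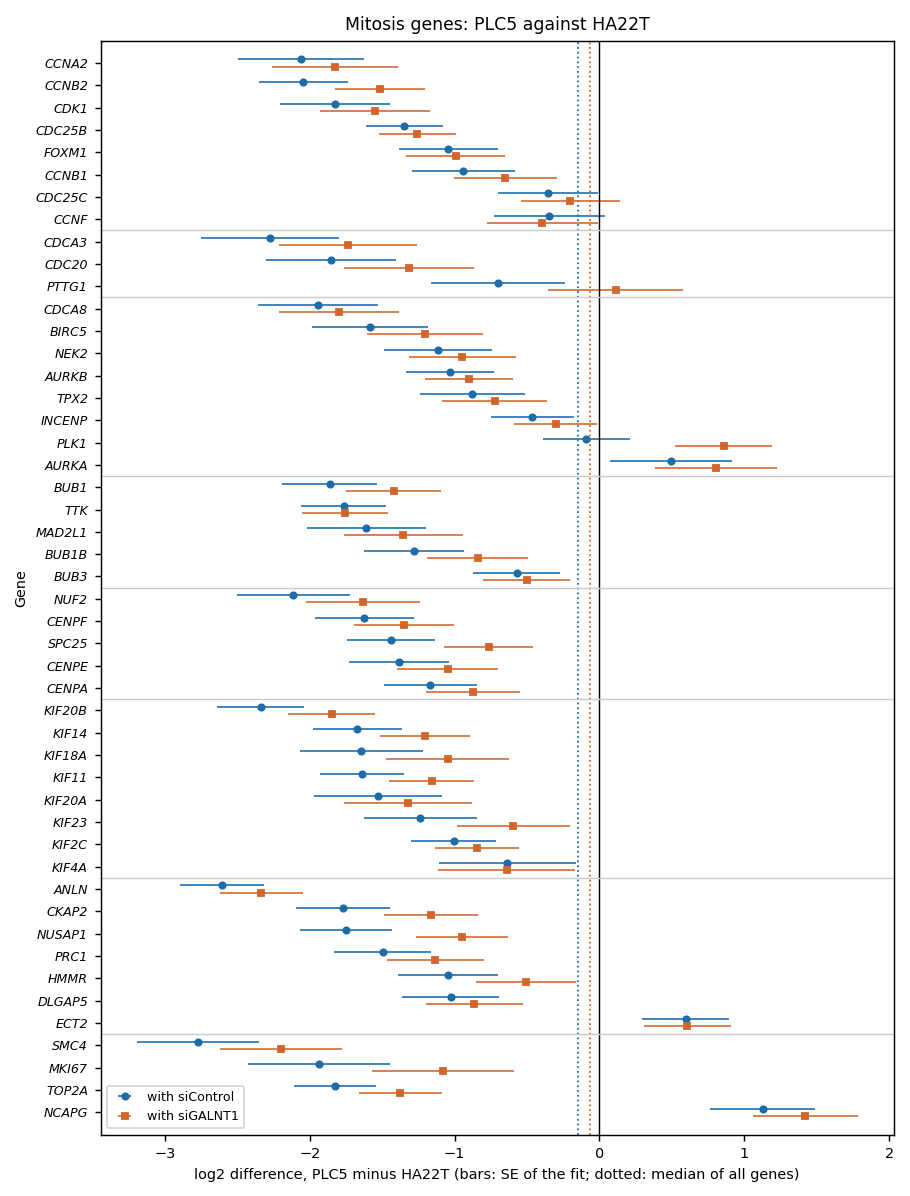
Log2 difference of each of the 48 mitosis genes, PLC5 minus HA22T (x axis), with siControl and with siGALNT1, by role from top to bottom, with bars for the SE of the limma fit and dotted lines for the medians of all genes (-0.15 and -0.07). Most genes lie left of the dotted lines, SMC4 and ANLN farthest at -2.77 and -2.61 with siControl, and NCAPG lies right of 0 at 1.13 and 1.42.

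Genes with both promoter motifs and genes without both were each mostly lower in PLC5. The 28 genes with both had a median difference of -1.61 with siControl, 22 of them called lower, and the 14 others with a window and a value a median of -1.33, with 12 called. With siGALNT1 the medians were -1.11 (20 called) and -1.0 (11 called). These are descriptions of the list, with no test between the 2 sets. The promoters printed above for CCNB2, CDK1 and MKI67 belong to the first set, and so does that of PLK1, whose read probe was not called lower, while ANLN, called lower, and NCAPG, called higher, had no CCAAT box.

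Other genes of the cell cycle were read for context, against 22.3% of all genes called lower and 16.5% higher with siControl, and 19.5% lower and 20.3% higher with siGALNT1. Of 41 other kinetochore and spindle genes, 26 were called lower and 2 higher in PLC5 with siControl, and 20 and 3 with siGALNT1. CENPU, of the inner kinetochore, was -3.58 (SE 0.42, adjusted p = 9.00e-05) with siControl and SPC24, the partner of SPC25, -3.35 (SE 0.42, adjusted p = 0.000145). KIF15, a kinesin that backs up KIF11, was higher by 2.77 (SE 0.38, adjusted p = 0.000311). Of 22 other mitotic entry genes, 16 were called lower and 2 higher, and 12 and 2 with siGALNT1. PSRC1, a spindle protein, was -2.39 (SE 0.24, adjusted p = 2.70e-05) and MASTL, the Greatwall kinase, -2.34 (SE 0.38, adjusted p = 0.000929), while PIMREG, a mitotic regulator, was higher by 4.56 (SE 0.55, adjusted p = 0.000113). Among 18 condensin, cohesin and separase genes 12 were called lower and 0 higher with siControl, and 7 of 17 lower and 0 higher with siGALNT1. SMC2, the partner of SMC4, was -2.07 (SE 0.39, adjusted p = 0.00276) and RAD21, the cohesin kleisin, -1.75 (SE 0.32, adjusted p = 0.00216).

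Of 17 genes of the anaphase-promoting complex, 9 were called lower and 2 higher with siControl, and 4 and 3 with siGALNT1, shares near those of all genes with siGALNT1. FBXO5, the inhibitor EMI1, was -2.06 (SE 0.31, adjusted p = 0.000533) and the subunit ANAPC13 -1.97 (SE 0.27, adjusted p = 0.000269). Of 13 DREAM and MuvB-MYBL2-FOXM1 regulators, 8 were called lower and 1 higher, and 3 and 1 with siGALNT1, where the share called lower was also near that of all genes. RB1, the retinoblastoma protein, was -2.28 (SE 0.27, adjusted p = 0.000107) with siControl and -1.95 (SE 0.27, adjusted p = 0.000353) with siGALNT1, MYBL2 was -1.03 (SE 0.35, adjusted p = 0.0598) with siControl, and E2F5, a repressor E2F, was higher by 1.02 (SE 0.30, adjusted p = 0.0296). Of 41 G1 and S phase genes, 24 were called lower and 0 higher, with a median of -0.95, and with siGALNT1 19 and 1, with a median of -0.86. They shared the slide pattern, since PLC5 replicate 1 was the highest siControl array for 33 of the 41. Of 7 CDK inhibitors, 2 were called lower and 1 higher with siControl, and 2 and 2 with siGALNT1. CDKN2C was -1.59 (SE 0.36, adjusted p = 0.0081), CDKN2A -1.51 (SE 0.35, adjusted p = 0.00939) and CDKN1A, p21, 0.63 (SE 0.28, adjusted p = 0.137).

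After knockdown of GALNT1 in HA22T, 1 of the 48 mitosis genes was called, PLK1, which fell, against 1.14% of all 16570 genes called lower and 2.47% called in either direction. PLK1 was 5.71, 4.96 and 5.27 with siControl and 4.35, 4.36 and 4.58 with siGALNT1. The groups did not overlap, and the difference was -0.88 (SE 0.30, adjusted p = 0.999), with an unadjusted p of 0.0145 and an exact permutation p of 0.1. Without HA22T siControl replicate 1, the highest array, the difference was -0.69 and was no longer called. The second PLK1 probe gave -0.43 (SE 0.45). SPC25, at -0.64 (SE 0.30, adjusted p = 0.999), MKI67, at -0.46 (SE 0.49, adjusted p = 0.999), CDCA3, at -0.41 (SE 0.48, adjusted p = 0.999), and KIF20B, at -0.39 (SE 0.30, adjusted p = 0.999), also had all siGALNT1 arrays below all siControl arrays without a call. Lower without overlap were thus 5 of the 48, with 6.37% of all genes, and higher without overlap 0, with 4.32%. No gene of the list reached an adjusted p of 0.05, nor did any of all genes read, of which 429 had an unadjusted limma p under 0.05.

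Over the 48 genes the median change in HA22T was -0.12, and that of all genes was also -0.12. The number of genes above 0 was 8 with this scaling (33.6% of all genes), 27 when the percentile was taken over the spots that were not flagged and 3 with scaling on the median, so that only the change relative to all genes is read, which was 0.00 log2 units with each of these scalings and -0.06 with normexp background correction. This relative change was 0.11 once HA22T siGALNT1 replicate 1 was left out (24 of 48 genes then had a difference above 0) and -0.10 once HA22T siGALNT1 replicate 2 was (5 of 48 above 0), its highest and lowest values with 1 array left out. By replicate number the median was -0.45 (2 of 48 above 0), 0.04 (26) and 0.08 (32), so that number 1 differed from the others. None of the genes used as proliferation markers was called other than PLK1. CDK1 stood at 0.07 (SE 0.38, adjusted p = 0.999), with its second probe at -0.76, CCNB1 at -0.08 (SE 0.36, adjusted p = 0.999) and TOP2A at -0.20 (SE 0.29, adjusted p = 0.999). AURKA stood at 0.05, AURKB at 0.06, FOXM1 at 0.02 and BIRC5 at -0.09, each less than its SE.

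In PLC5 none of the 48 genes was called after knockdown, none had an unadjusted limma p under 0.05, and none was without overlap, against 0.712% of all 16860 genes called and 4.15% without overlap (2.4% higher and 1.74% lower). The lowest of the 48 was NCAPG at -0.10 (SE 0.36, adjusted p = 1) and the highest KIF23 at 0.48 (SE 0.39, adjusted p = 1). The difference was above 0 for 44 of the 48 genes, as for 60.7% of all genes, and the median was 0.18 against 0.05 over all genes. By replicate number, which is not shown to pair the PLC5 arrays, the median was 0.16 (37 of 47 above 0), 0.63 (47 of 48) and -0.20 (12 of 48). The sign of the median thus depended on single arrays, and it was -0.05 once PLC5 siGALNT1 replicate 1 was left out and -0.04 once PLC5 siControl replicate 2 was. Of the proliferation genes, MKI67 stood at 0.40 (SE 0.49, adjusted p = 1), AURKA at 0.36 (SE 0.42, adjusted p = 1) and CDK1 at 0.35 (SE 0.38, adjusted p = 1). BIRC5 stood at 0.29, TOP2A at 0.25, CCNB1 at 0.21, AURKB at 0.19, FOXM1 at 0.07 and PLK1, from 2 siGALNT1 arrays, at 0.06.

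**Figure D5:**
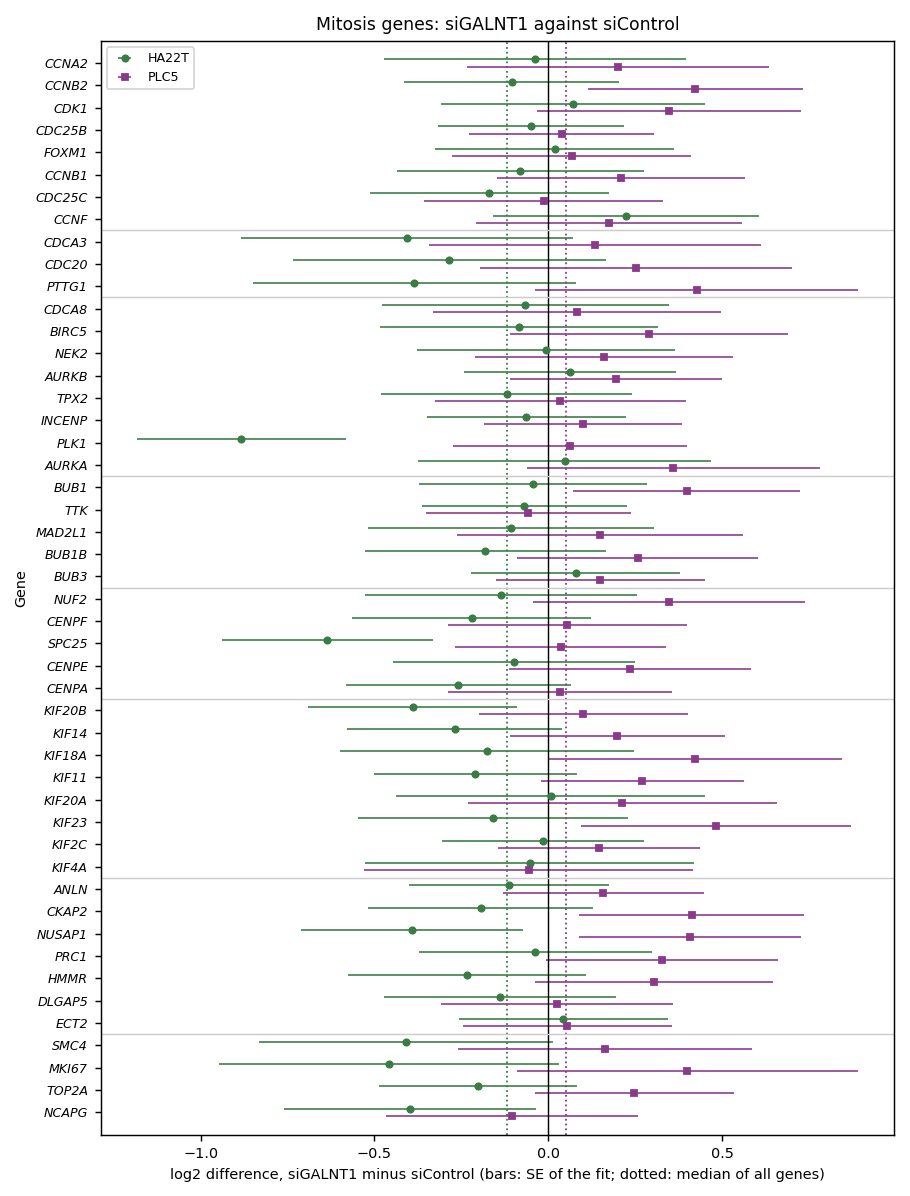
Log2 difference of each of the 48 mitosis genes, siGALNT1 minus siControl (x axis), in HA22T (circles) and PLC5 (squares), by role from top to bottom, with bars for the SE of the limma fit and dotted lines for the medians of all genes (-0.12 and 0.05). Most differences lie within 0.5 log2 units of 0, and PLK1 in HA22T stands apart at -0.88.

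The change in PLC5 was set against that in HA22T by an interaction term. None of the 48 genes was called, against 1.53% of all 16682 genes (0.617% higher and 0.911% lower), and none had an unadjusted limma p under 0.05. The interaction was above 0 for 46 of the 48 genes and for 67.2% of all genes, with a median of 0.30 against 0.18. The median of the 48 genes no longer exceeded that of all genes when either of 2 arrays was left out, at 0.06 against 0.10 without PLC5 siControl replicate 2 and 0.10 against 0.11 without PLC5 siGALNT1 replicate 1, with 29 of 48 above 0 each time. Without PLC5 siControl replicate 1 the medians were 0.63 against 0.23. PLK1 had the largest value, 0.95 (SE 0.45, adjusted p = 0.978), with an unadjusted p of 0.0617, and MKI67 followed at 0.86 (SE 0.69, adjusted p = 0.978). A difference between the lines in the response of these genes to GALNT1 knockdown was not detectable with 3 arrays a group. Outside the 48 genes, LIN52, a MuvB core subunit, was the only gene of the other cell cycle lists called after knockdown, higher in PLC5 at 0.84 (SE 0.32, adjusted p = 1), with 2 of 3 siGALNT1 and 1 of 3 siControl arrays well above background.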

How the data were processed

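RNA from 12 samples of transfected HA22T and PLC5 cells was hybridized to one-color Agilent arrays, 3 per group, and groups follow the sample labels. The authors extracted total RNA, labeled cDNA and read the images with Agilent Feature Extraction (version 10.5.1.1). The deposited intensity values are background-subtracted processed signals and median spot and background brightness per spot, with flags. A table of log2 values by probe, also deposited and used as an alternative, differed from the values here by at most 0.0042 (median over probes of an array, flagged spots kept). How that table was scaled is not given in the sources used here.

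Control spots were left out, spots of one probe were averaged, and each array was scaled as log2 of the processed signal minus its 75th percentile. Spots flagged as non-uniform, which the authors excluded, were then left out. This scaling over all probes was settled after member values had been seen, because taking the percentile over unflagged spots or over probes with no flagged spot made each array's reference depend on its own flags; both stand among the alternatives. The brightest probe with values on at least 2 arrays of each group stood for its gene, and 28174 of 50599 probes matched one of 20503 genes through RefSeq accessions. Probes were tested if 3 or more of the 6 arrays compared (6 of 12 for the interaction) were well above background. A limma fit (3.58.1, R 4.3.3) over 4 groups without covariates gave differences, SE and adjusted p values, and scripts were tested on simulated data. The number of arrays limits the precision.

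The mitosis genes and the other gene lists were chosen with earlier results of these data known, so no list was tested and lists are described by counts and medians beside all genes. Values on every array are given for the members called in a comparison, or not overlapping, up to the 25 with the largest difference, and 9 proliferation genes (CDK1, CCNB1, MKI67, TOP2A, PLK1, AURKA, AURKB, FOXM1 and BIRC5) are described after knockdown in any case. Outside the list, at most 5 called genes of each other list could be named. Same-numbered arrays deviated together in HA22T (correlations over probes 0.555, 0.402 and 0.427), as values show and no label states. In PLC5 the replicates 1, which share slide 1, did so at 0.701, while numbers 2 and 3 gave -0.0443 and 0.181. PLC5 siControl replicate 2 went most with siGALNT1 replicate 3, at 0.527. Alternatives were background correction by normexp (offset 50), scaling on the median, quantile normalization, the deposited table, flagged spots kept, 2 filters on dim probes, slide or replicate number as a block, the methods' t-test, the mean over probes, each array left out, and, chosen after seeing the data, both other percentile scalings, the PLC5 arrays of each slide alone and promoter matches counted by gene.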

Additional observations from a re-analysis of the deposited data

How the results depend on the processing

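The median difference of the mitosis genes between the lines kept its direction under every alternative run. The 25 called genes with the largest difference in each comparison were each run under every alternative except the 2 filters on dim probes. With siControl 618 values kept direction and call and 7 lost the call, and with siGALNT1 581 and 44. These genes were picked by their size in these data, so that weaker called genes are not covered. Leaving out an array of the other siRNA cannot move a difference, and the counts include the fit with 1 PLC5 array a group. Over all 48 genes, called genes numbered 39 with siControl and 36 with siGALNT1. The siControl count was 22 with the PLC5 arrays of slide 1 alone, against 25.2% of all genes. The siGALNT1 count was 21 with the slide as a block, near the 37.8% of all genes called in either direction, and 11 with the PLC5 arrays of slide 1 alone, below the 26.9% of all genes. With the slide as a block the median differences were -0.9003 with siControl and -0.4978 with siGALNT1. With slide 1 alone they were -0.8334 and -0.5009. All HA22T arrays lie on slide 1, so the slide term rests on PLC5 replicate 1 against the other PLC5 replicates. The block and slide 1 alone are therefore not separate checks. The cause of the smaller differences was not tested. Leaving out each array in turn gave 35 to 41 genes with siControl, against 32.9% to 39.3% of all genes. With siGALNT1 it gave 26 to 39, against 33.3% to 40.8%. The medians ran from -1.731 to -1.2 with siControl and from -1.299 to -0.8585 with siGALNT1. The methods' t-test called 35 and 28 genes, and 14 and 6 after Benjamini-Hochberg. The share of all genes called by that test was not counted, so these counts have no background beside them. The replicate block, with the replicate number as a term, called 39 and 35 genes between the lines, against 40.7% and 41.8% of all genes. After knockdown it called 1 in HA22T, against 4.31%, 0 in PLC5, against 1.34%, and 0 in the interaction, against 2.91%. It changed no count of the mitosis genes by more than 1.5 times. In PLC5, where the numbers are not shown to pair the arrays, PLK1 alone changed sign with it, at -0.06603, not called.

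After knockdown in HA22T the 1 call (PLK1) was lost without HA22T siControl replicate 1. The count thus ran from 0 to 1 when arrays were left out, against 1.41% to 4.44% of all genes. The median ran from -0.2083 to -0.000764. In PLC5 the count was 0 each time, against 0.546% to 2.24% of all genes when arrays were left out. The PLC5 median ran from -0.0453 to 0.4399. The interaction count of 0 became 2 with normexp background correction, against 1.59% of all genes. It was 1 with the deposited table (1.49% of all genes), with flagged spots kept (1.74%) and with the slide as a block (2.1%). When arrays were left out it ran from 0 to 1, against 0.887% to 3.96% of all genes. The interaction median ran from 0.06218 to 0.635. Some uncalled values changed sign. In HA22T, AURKA was -0.08187 with normexp and -0.01683 with median scaling, AURKB -0.03957 and -0.001041, and FOXM1 -0.04601 with median scaling. With the percentile over probes with no flagged spot and over spots not flagged, BIRC5 was 0.04895 and 0.05328 and CCNB1 0.05429 and 0.05861, and CDK1 was -0.3442 as the mean over probes. Left-out arrays gave ranges in HA22T of -0.07163 to 0.2071 for AURKA, -0.08609 to 0.254 for AURKB, -0.1803 to 0.08261 for BIRC5, -0.2373 to 0.006555 for CCNB1, -0.1897 to 0.3911 for CDK1 and -0.129 to 0.2416 for FOXM1. In PLC5 they were -0.007564 to 0.4423 for AURKB, -0.06048 to 0.6493 for BIRC5, -0.1187 to 0.4958 for CCNB1, -0.2095 to 0.357 for FOXM1, -0.07962 to 0.8951 for MKI67 and -0.123 to 0.3083 for PLK1. FOXM1 was -0.1004 with PLC5 slide 1 alone. PLK1 was -0.06603 with the slide as a block and with PLC5 slide 2 alone and -0.3403 as the mean over probes. In that mean PLC5 siGALNT1 replicate 1 was read from the dimmer PLK1 probe alone, while the 2 probes by themselves gave 0.06 and -0.06. All 48 genes lay well above background on every array with a value.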
